A study of Mus musculus with 15 samples.

Results

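The CC chemokines of the colon described here are 10 genes: Ccl2, Ccl3, Ccl4, Ccl5, Ccl7, Ccl8, Ccl11, Ccl20, Ccl25 and Ccl28. They were chosen by name, as every probe whose gene name on the array is one of these, and not by any measured value. The array held 14 such probes, with 3 for Ccl25, 2 each for Ccl5 and Ccl7 and 1 for each of the other members. Of the 14 probes, 13 passed the filter on dim signals, so all 10 members were among the 21301 genes tested. The filter asked that all arrays of 1 or more groups be well above background, and 9 members met it in both tissues, while Ccl7 met it in the polypoid groups alone. The colon came from 8 female Swiss Webster mice that had all received azoxymethane (AOM, a colon carcinogen, 7.4 mg/kg) followed by 3 rounds of dextran sulfate sodium (DSS, which injures the colon lining) at 4%. Each round was 7 days of DSS and 21 days of water, with mice 7 weeks old at the start, 9 weeks old at the first round and 18 weeks old when killed. The 4 groups of 2 mice were untreated inflamed, untreated polypoid, treated inflamed and treated polypoid tissue, where treated mice received 5-aminosalicylic acid (5-ASA, an anti-inflammatory drug for ulcerative colitis) at 75 mg/kg and untreated mice received its vehicle. Each mouse gave 1 tissue, so inflamed and polypoid areas were compared between mice, and no normal colon is among the groups. Laser capture took the areas out of frozen sections, with epithelium and other cells together. Their RNA was amplified in 2 rounds and hybridised beside a universal mouse reference RNA on 15 arrays, 2 per mouse with the dyes swapped except for treated inflamed replicate 2, which had 1.

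CC chemokines are small secreted proteins that bind receptors on white blood cells and steer them along a gradient. Inflammatory members are switched on by cytokines and microbial products, and they draw monocytes, T cells, eosinophils and other cells from blood into tissue. Homeostatic members are made steadily by epithelium and place lymphocytes and antibody-secreting cells in the mucosa. Of the members here, Ccl2 and Ccl7 act on the monocyte receptor Ccr2, mouse Ccl8 acts on Ccr8, Ccl3 and Ccl5 act among others on Ccr1, and Ccl11 acts on Ccr3 of eosinophils. Ccl20 is the ligand of Ccr6, Ccl25 of Ccr9 and Ccl28 of Ccr10, and all 3 are known as products of gut epithelium.

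Promoter windows were available for 5 of the 10 members (Ccl3, Ccl8, Ccl20, Ccl25 and Ccl28). The last 150 bases before the gene start are shown for Ccl20 and Ccl28, the members of these 5 whose animals did not overlap when all 4 of a tissue or of a treatment were set against the other 4, and for Ccl3 and Ccl8 beside them. Sequences are from RefSeq on GRCm38.p6, whose strain is not the one studied, and run 5′ to 3′ on the strand of the gene. Capitals mark matches on either strand to GGGNNNNNCC (a loose form of the NF-kB site), TGANTCA (AP-1) or TATAAA (the TATA box).
Ccl20: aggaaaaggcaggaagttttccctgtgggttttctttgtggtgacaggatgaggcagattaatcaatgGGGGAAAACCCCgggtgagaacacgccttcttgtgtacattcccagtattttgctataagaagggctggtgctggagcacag
Ccl28: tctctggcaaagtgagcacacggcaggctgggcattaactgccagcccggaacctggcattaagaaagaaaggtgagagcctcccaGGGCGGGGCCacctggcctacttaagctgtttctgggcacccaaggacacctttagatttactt
Ccl8: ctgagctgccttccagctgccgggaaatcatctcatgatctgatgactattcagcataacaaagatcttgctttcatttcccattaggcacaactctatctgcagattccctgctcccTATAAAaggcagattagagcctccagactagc
Ccl3: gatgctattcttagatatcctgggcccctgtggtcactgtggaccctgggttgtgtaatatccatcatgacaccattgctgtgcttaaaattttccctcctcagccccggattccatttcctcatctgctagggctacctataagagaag
The windows are chr1:83116616-83116765 (plus strand) for Ccl20, chr13:119623669-119623818 (plus) for Ccl28, chr11:82115035-82115184 (plus) for Ccl8 and chr11:83649379-83649528 (minus) for Ccl3. The Ccl20 run in capitals is 4 overlapping matches to the loose NF-kB form, on both strands, from base -82 to base -71 before the start. Ccl28 held 1 match, GGGCGGGGCC, and Ccl8 held 1 TATAAA. In the 250 bases before the start, the loose NF-kB form occurred in 45.8% of 32851 promoter windows of RefSeq, TGANTCA in 6.75% and TATAAA in 12.4%. A match describes letters and is no evidence of a bound site. In the same reference, Ccl2, Ccl7 and Ccl11 lie next to each other, and so do Ccl3 and Ccl4.

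All levels below are log2 of the sample over the reference RNA, so 0 is the level of the reference, and levels of different genes cannot be ranked against each other. The sample channel was well above background for 57.4 to 90.9% of probes per array, and the 2 animals of a group correlated at r of 0.872 to 0.943 across genes. The lowest share, 57.4%, was on the only array of treated inflamed replicate 2. The arrays were scanned on 4 days, called sessions here. Session 1 held both inflamed replicates 1, session 2 both polypoid replicates 1, session 3 untreated inflamed replicate 2 and both polypoid replicates 2, and session 4 treated inflamed replicate 2 alone. Only session 3 holds both tissues. All 10 epithelial markers (such as Epcam and Krt8) were well above background on every array, and their mean level was 2.97 to 3.36 in inflamed and 2.40 to 3.16 in polypoid animals. In captured tissue, fewer cells of a type and less RNA per cell cannot be told apart.

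The comparison of polypoid with inflamed tissue asked which chemokines differ between a polyp and inflamed mucosa. Ccl7 rose in polypoid tissue and was the only member called (limma, adjusted p below 0.05) over both arms. Since its probe passed the filter through the polypoid groups alone, where it is high, that call carries no weight as a count of members. Ccl28 was lower in all 4 polypoid animals than in all 4 inflamed animals without passing the test, and the other 8 members overlapped. Over all genes 5.93% were called (3.97% higher and 1.97% lower in polypoid), so 1 call among 10 members is no result about the family. Groups of 4 did not overlap, higher in polypoid, for 8.37% of genes (Ccl7 of the members) and, lower in polypoid, for 7.91% (Ccl28). The median difference over the members was 0.13, against -0.02 over all genes. In untreated mice alone 0 of 10 members and 0.164% of genes were called, and 1 member had an unadjusted p below 0.05, as did 2692 genes. Under 5-ASA 1 of 10 members (Ccl7) and 3.06% of genes were called.

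**Figure D1:**
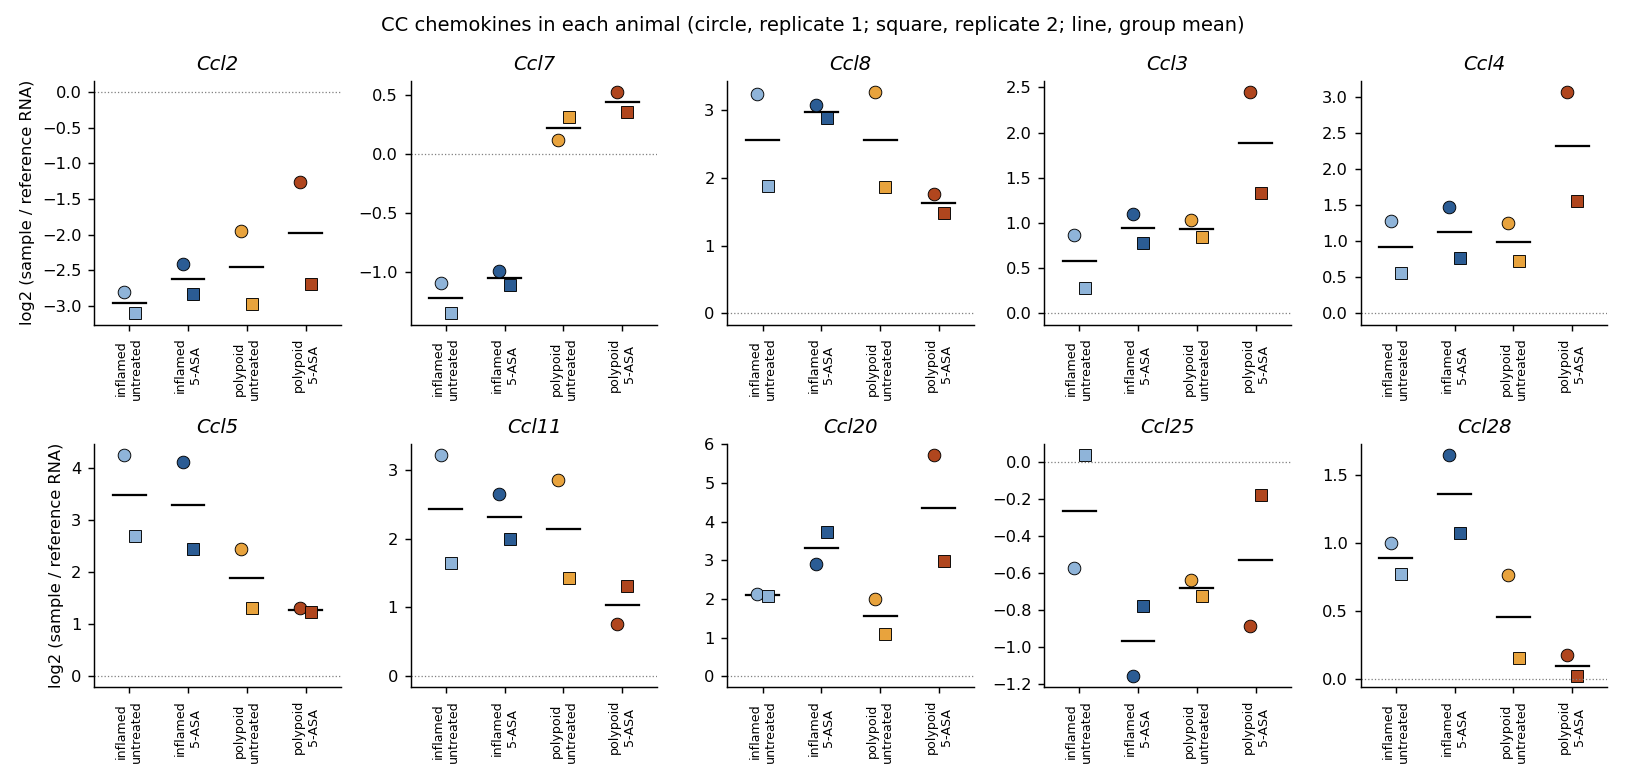
Level of each member (log2 of sample over reference RNA, y axis, own scale per panel) in the 4 groups (x axis). Circles are replicate 1, squares replicate 2 and lines group means; Ccl7 lies above 0 in the 4 polypoid animals and at -0.99 or lower in the 4 inflamed ones, and Ccl20 is highest in treated polypoid replicate 1 at 5.73.

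Ccl7 draws monocytes through Ccr2. Its level was -1.10 and -1.35 in the untreated inflamed mice and -0.99 and -1.10 in the inflamed mice given 5-ASA. In polypoid tissue it was 0.12 and 0.32 in the untreated mice and 0.52 and 0.36 in the mice given 5-ASA. Every polypoid animal thus lay above every inflamed one, by a gap wider than the spread inside any group, which was at most 0.25. The probe was well above background on 3 of 4 untreated inflamed and 2 of 3 treated inflamed arrays, and on all 8 polypoid arrays. The measured difference was 1.46 ± 0.11 (SE), with limma adjusted p = 0.00487 over all genes, and no fold is given because the inflamed level was not well above background on every array. It was 1.49 ± 0.16 under 5-ASA (adjusted p = 0.0175) and 1.44 ± 0.16 in untreated mice (adjusted p = 0.0504), and the 2 differed by 0.05 with a 95% interval from -0.49 to 0.59. In order of group means Ccl7 ran from untreated inflamed (-1.22) through treated inflamed (-1.05) and untreated polypoid (0.22) to treated polypoid (0.44). Of neighbours in that order, the inflamed groups overlapped each other and the polypoid groups differed by 0.22 ± 0.16, short of the test.

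The call on Ccl7 rests on its brighter probe, A_51_P436652. The other probe for Ccl7, A_52_P208763, read -0.55 and -0.31 in untreated inflamed, -0.34 and -0.20 in treated inflamed, -0.08 and 0.50 in untreated polypoid and 0.20 and -0.02 in treated polypoid tissue. It too was higher in every polypoid than in every inflamed animal, but by 0.50 ± 0.16, with limma adjusted p = 0.134. Both probes passed the background test on all 8 polypoid arrays but on only 5 of 7 inflamed arrays, so the inflamed level of Ccl7 lies near the limit of detection, and the size of the difference is uncertain. Within session 3 the Ccl7 difference was 1.69, from 2 polypoid animals and 1 inflamed animal, and with session as a block it was 1.63 with adjusted p = 0.334. With session as a block no gene on the array was called. That fit estimates 4 groups and 4 sessions from 8 animals, so almost nothing is left to measure the spread. Treated inflamed replicate 2, alone in session 4, drops out of it. The lack of calls in that fit, for any gene, cannot decide whether a difference depends on session. The call under 5-ASA was lost on leaving out any of the 4 treated animals, with differences of 1.40 to 1.57 and adjusted p of 0.0838 to 0.146. It was also lost with the scanner software's processed signals (2.30, adjusted p = 0.0669) and with session as a block (1.69, adjusted p = 0.43). The other probe gave only 0.36 ± 0.22 under 5-ASA (limma adjusted p = 0.483).

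Ccl2, the best known monocyte chemokine and the neighbour of Ccl7, did not pass the test. It was below the reference in every animal, at -2.81 and -3.10 in untreated inflamed, -2.41 and -2.83 in treated inflamed, -1.94 and -2.97 in untreated polypoid and -1.26 and -2.69 in treated polypoid tissue. In both polypoid groups replicate 1 was the higher, and replicate 2 lay among the inflamed animals. The difference was 0.57 ± 0.38 (95% interval -0.35 to 1.49, limma adjusted p = 0.426).

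Ccl8, a ligand of Ccr8 made largely by tissue macrophages, was above the reference throughout. It was 3.22 and 1.87 in untreated inflamed, 3.06 and 2.88 in treated inflamed, 3.26 and 1.86 in untreated polypoid and 1.77 and 1.48 in treated polypoid tissue. The groups overlapped except that both treated polypoid animals were below all others. The polypoid difference was 0.01 ± 0.57 in untreated mice and -1.35 ± 0.57 under 5-ASA, neither past the test (limma adjusted p = 0.996 and 0.278), and the test of the difference between them gave -1.36 with a 95% interval from -3.33 to 0.62. The 9 monocyte and macrophage markers tested averaged 1.75 to 2.53 in inflamed and 1.73 to 2.31 in polypoid animals, and none was called. Over both arms 3 had positive and 6 negative differences, from -1.12 ± 0.28 for Lyz2 to 0.55 ± 0.20 for Itgam. Cd163 (-0.88) passed the filter through inflamed tissue alone. Under 5-ASA 1 was positive and 8 negative (median -0.33), and for the difference between the drug effects all 9 were negative (median -0.38). The part of macrophage content in the Ccl8 values was not tested.

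Ccl3 and Ccl4, products of activated macrophages and T cells, ran alike across the animals. Ccl3 was 0.87 and 0.29 in untreated inflamed, 1.10 and 0.78 in treated inflamed, 1.03 and 0.84 in untreated polypoid and 2.45 and 1.33 in treated polypoid tissue. Ccl4 was 1.28 and 0.56, 1.48 and 0.77, 1.26 and 0.73, and 3.07 and 1.56 in the same order. For both genes the 2 treated polypoid animals were above all others, and the remaining 3 groups overlapped. With 5-ASA, polypoid tissue was higher than without by 0.95 ± 0.39 for Ccl3 and by 1.33 ± 0.55 for Ccl4, neither past the test (limma adjusted p = 0.645 and 0.646). The deposited value table held Ccl3 on only 4 of 15 arrays, with none for treated polypoid replicate 1, treated inflamed replicate 1 or the untreated inflamed animals, and so could not check that difference. Of 7 inflamed arrays, 6 had Ccl3 and 6 had Ccl4 well above background, as did 8 and 7 of 8 polypoid arrays.

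Ccl5 (RANTES), a product of T cells and natural killer cells, was highest in inflamed tissue. It was 4.25 and 2.70 in the untreated inflamed mice and 4.11 and 2.45 in the inflamed mice given 5-ASA, against 2.45 and 1.30 in untreated polypoid and 1.32 and 1.23 in treated polypoid tissue. The lowest inflamed animal (treated inflamed replicate 2) and the highest polypoid animal (untreated polypoid replicate 1) were level. The difference was -1.80 ± 0.52 (95% interval -3.07 to -0.53), which did not pass the test over all genes (limma adjusted p = 0.103). With the scanner software's processed signals it was -1.91 and passed (adjusted p = 0.0335). The other Ccl5 probe gave -1.46 ± 0.52 with adjusted p = 0.174. Within session 3 the Ccl5 difference was -1.43. All 9 T cell markers tested (such as Cd3e and Cd4) had negative differences (median -0.25) with none called, and their mean level was -1.08 to -0.76 in inflamed and -1.51 to -1.09 in polypoid animals. Cd28 was well above background on 5 or fewer arrays. The part of T cell content in the Ccl5 values was not tested.

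Ccl11 (eotaxin), which draws eosinophils through Ccr3, was above the reference in every animal. It was 3.22 and 1.65 in untreated inflamed, 2.64 and 1.996 in treated inflamed, 2.85 and 1.43 in untreated polypoid and 0.77 and 1.32 in treated polypoid tissue. Both treated polypoid animals were below all others, and the first 3 groups overlapped. The polypoid difference was -0.79 ± 0.47 over both arms (limma adjusted p = 0.379) and -1.28 ± 0.66 under 5-ASA (adjusted p = 0.377). The Ccl11 difference over both arms stayed negative on leaving out each animal (-1.18 to -0.39) and within session 3 (-0.27). Only with session as a block, the fit with almost nothing left to measure the spread, did it change sign, to 0.01. Only 3 of 6 eosinophil markers on the array passed the filter on dim signals (Epx, eosinophil peroxidase, was well above background on 5 or fewer arrays), so eosinophil content could not be read well.

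Ccl28, which epithelium secretes and which draws IgA plasma cells through Ccr10, was lower in polypoid tissue without passing the test. It was 1.002 and 0.77 in untreated inflamed and 1.65 and 1.07 in treated inflamed tissue, against 0.76 and 0.15 in untreated polypoid and 0.18 and 0.02 in treated polypoid tissue. All 4 polypoid animals were below all 4 inflamed ones, with untreated polypoid replicate 1 almost level with untreated inflamed replicate 2. The difference was -0.85 ± 0.20 (95% interval -1.32 to -0.37, limma adjusted p = 0.0626). It was -1.26 ± 0.28 under 5-ASA (adjusted p = 0.0724) and -0.43 ± 0.28 in untreated mice (adjusted p = 0.567), and the test of the difference between these gave -0.83 with a 95% interval from -1.79 to 0.12. With the scanner software's processed signals the difference under 5-ASA was -2.28 and passed (adjusted p = 0.0174). The difference over both arms passed with the processed signals (-1.59, adjusted p = 0.0112), with the Cy3 arrays alone (-0.90, adjusted p = 0.0483) and without untreated polypoid replicate 1 (-0.999, adjusted p = 0.0455). Within session 3 it was -0.69. In order of group means Ccl28 ran from treated polypoid (0.10) through untreated polypoid (0.46) and untreated inflamed (0.89) to treated inflamed (1.36), and none of the differences between neighbours in that order passed the test.

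Markers of several cell types were lower in polypoid tissue, as Ccl28 was. Beside the counts that follow, 1.97% of all genes were called lower and 3.97% higher in polypoid tissue. All 8 B and plasma cell markers had negative differences (median -1.64), of which 1, Mzb1, a chaperone of antibody assembly, was called (-1.73 ± 0.35, limma adjusted p = 0.0455). Their mean level was 1.65 to 3.44 in inflamed and 0.33 to 1.93 in polypoid animals. Of 8 markers of mature colonocytes, the surface epithelium of the colon, 6 fell and 1 rose, and their mean level was 3.13 to 3.87 in inflamed and 0.49 to 2.84 in polypoid animals. All 8 smooth muscle markers had negative differences (median -1.41), and 4 of them fell, Tagln, Cnn1, Myl9 and Lmod1 (Lmod1 by -2.10 ± 0.30). Their mean level was 1.35 to 3.52 in inflamed and 0.57 to 1.17 in polypoid animals, with no overlap. Des, 1 of the 8, passed the filter through untreated inflamed tissue alone, so its negative difference carries no weight, though it counts in that mean. The other 7, with the 4 that fell among them, passed in both tissues. The part of these cell types in the Ccl28 values was not tested.

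Ccl25, known mainly as the small intestinal ligand of Ccr9, was below or near the reference. It was -0.57 and 0.04 in untreated inflamed, -1.16 and -0.78 in treated inflamed, -0.64 and -0.73 in untreated polypoid and -0.89 and -0.18 in treated polypoid tissue. Inflamed and polypoid animals were mixed, with a difference of 0.01 ± 0.22 (95% interval -0.52 to 0.54). Its second probe that passed the filter gave 0.15 ± 0.20. The third probe did not pass.

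**Figure D2:**
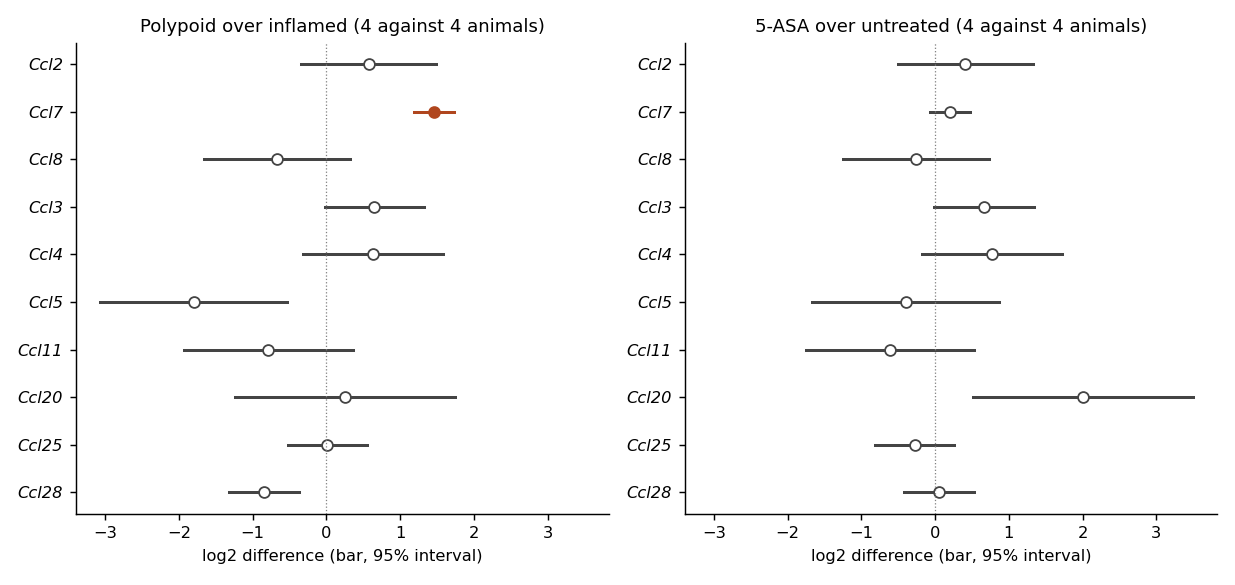
Difference of each member (log2, x axis) between polypoid and inflamed animals (left) and between 5-ASA and untreated animals (right), 4 against 4, with bars for 95% intervals. The filled point is the 1 call, Ccl7 at 1.46, and the intervals that leave out 0 beside it are those of Ccl5 and Ccl28 on the left and Ccl20 on the right.

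The comparison of 5-ASA with vehicle asked whether the drug moved these chemokines. Ccl20 was higher in all 4 animals given 5-ASA than in all 4 untreated ones, and no member was called. Over both tissues 0% of genes were called by limma, 1360 genes and 1 member (Ccl20) had an unadjusted p below 0.05, and the smallest adjusted p over all genes was 0.766. Within polypoid tissue 0% of genes were called and 1653 genes, among them 1 member, Ccl20, had an unadjusted p below 0.05. Within inflamed tissue 0% were called and 933 genes, none of them a member, did. For the difference between the drug effects in the 2 tissues 0% were called and 1272 genes, none of them a member, had an unadjusted p below 0.05.

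Ccl20 attracts T helper 17 cells, B cells and dendritic cells through Ccr6 and is made by epithelium over lymphoid follicles and under inflammation; its promoter window is the one with the overlapping NF-kB-like matches. It was 2.13 and 2.07 in untreated inflamed and 2.01 and 1.10 in untreated polypoid tissue, against 2.90 and 3.72 in inflamed and 5.73 and 2.99 in polypoid tissue with 5-ASA. The 4 untreated animals spanned 1.10 to 2.13, and treated polypoid replicate 1 stood far above the other treated animals. The groups of 4 did not overlap, which held for 1.02% of all genes in that direction. The difference was 2.01 ± 0.61 (4.02-fold, 95% interval 0.52 to 3.50), with an unadjusted p of 0.0163 and limma adjusted p = 0.766. It was 1.21 ± 0.87 in inflamed and 2.80 ± 0.87 in polypoid tissue, and the test of the difference between these gave 1.59 with a 95% interval from -1.39 to 4.57. Without treated polypoid replicate 1, the difference over both tissues was 1.32 (adjusted p = 0.603) and that in polypoid tissue 1.43. Within sessions it was 0.77 in session 1 (inflamed), 3.72 in session 2 and 1.88 in session 3 (both polypoid), each from 1 animal against 1. Over the alternatives that kept all animals it stayed between 1.79 and 2.11 with adjusted p of 0.475 or more. The 2 arrays of treated polypoid replicate 1 read 6.06 and 5.40.

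In order of group means Ccl20 ran from untreated polypoid (1.56) through untreated inflamed (2.10) and treated inflamed (3.31) to treated polypoid (4.36). The treated groups overlapped each other, and the untreated groups differed by -0.54 ± 0.87 (polypoid minus inflamed). Tissue alone gave 0.25 ± 0.61 over both arms, which turned to -0.43 without treated polypoid replicate 1 and to -0.41 with session as a block. The 10 epithelial markers averaged 2.97 to 3.16 in untreated animals and 2.40 to 3.36 in those given 5-ASA and were lowest, at 2.69 and 2.40, in the treated polypoid animals. The 9 monocyte and macrophage markers averaged 1.75 to 2.31 in untreated and 1.73 to 2.53 in treated animals.

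The other members moved less with 5-ASA. Ccl3 differed by 0.66 ± 0.28 and Ccl4 by 0.77 ± 0.39 over both tissues, with limma adjusted p = 0.781 and 0.799. Ccl2 (0.41 ± 0.38), Ccl7 (0.20 ± 0.11) and Ccl28 (0.06 ± 0.20) were also positive, and Ccl11 (-0.61 ± 0.47), Ccl5 (-0.40 ± 0.52), Ccl25 (-0.28 ± 0.22) and Ccl8 (-0.26 ± 0.41) negative. For Ccl7 the 95% interval ran from -0.07 to 0.47 and for Ccl28 from -0.42 to 0.53, while for Ccl11 it ran from -1.75 to 0.53, so the bounds on a drug effect are wider for some members than for others. The polypoid and the drug comparisons use the same 8 animals.

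**Figure D3:**
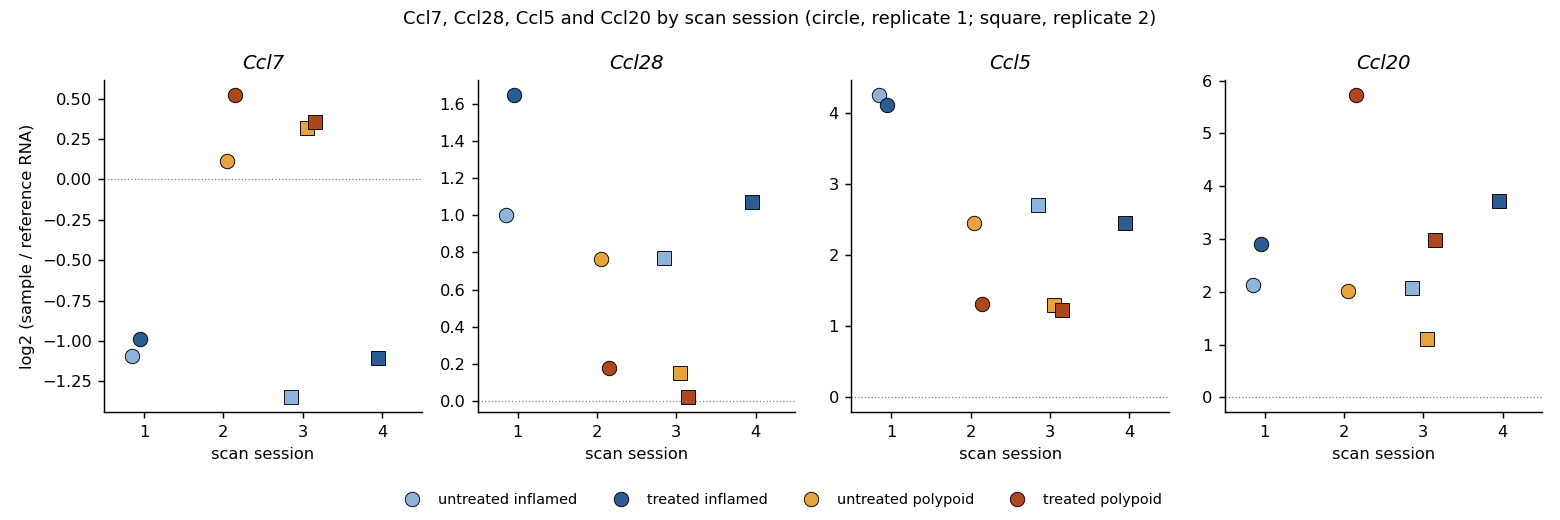
Levels of Ccl7, Ccl28, Ccl5 and Ccl20 (log2 of sample over reference RNA, y axis) by scan session (x axis), with colour for the group, circles for replicate 1 and squares for replicate 2. In session 3, which holds both tissues, Ccl7 is higher by 1.69 in the 2 polypoid animals than in the inflamed one, and Ccl28 is lower by 0.69 and Ccl5 by 1.43 (differences of -0.69 and -1.43).

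The spread of the members was wide for this array. The SD over the 8 animals was 1.41 for Ccl20, 1.20 for Ccl5, 0.85 for Ccl11 and 0.80 for Ccl7, larger than for 98.8%, 98.2%, 95.3% and 94.3% of all genes. The smallest was 0.38 for Ccl25, larger than for 65.4% of genes. The 2 arrays of an animal differed by -0.66 to 0.95 over the 14 member probes, with the widest range for Ccl4 and a range of -0.14 to 0.14 for the brighter Ccl7 probe. Array error was thus small beside the tissue difference of Ccl7, and for Ccl4 it was as large as some differences between animals.

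The genes nearest to a member in profile were found for the 4 members with the largest SD, as the smallest root mean square difference (RMS) of centred log2 levels over the 8 animals. For Ccl7 they were Evx1 (RMS 0.14) and Sirpb1a (0.14), against a median of 0.78 over all genes. For Ccl11 they were Spdef (0.19) and Muc2 (0.22), a transcription factor and the main mucin of goblet cells, against a median of 0.82. For Ccl5 they were AK033632 (0.30) and Tmem151a (0.30), and for Ccl20 Clec7a (0.72), a receptor for fungal glucans, and Egr1 (0.72), an immediate early transcription factor. Ccl20 thus had no gene with a profile as near as the other 3 had. Clec7a was 4.64 in treated polypoid replicate 1 and 2.06 in untreated polypoid replicate 2, the animals in which Ccl20 was highest and lowest. Likeness is over 8 animals and is a description.

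None of the CC chemokine receptors analysed passed the test. All 9 were on the array, and 8 passed the filter (Ccr10, the receptor of Ccl28, did not). Limma called 0 of 8 in either comparison over all 8 animals. None of the 8 had an unadjusted p below 0.05, against 23.2% of all genes between tissues and 6.38% with 5-ASA. Ccr2, the receptor of Ccl2 and Ccl7, was 1.42 and 0.70 in untreated inflamed, 1.66 and 1.72 in treated inflamed, 1.84 and 0.85 in untreated polypoid and 1.55 and 1.37 in treated polypoid tissue. Its groups overlapped, with a polypoid difference of 0.03 ± 0.26 (95% interval -0.61 to 0.66). Ccr6, the receptor of Ccl20, was 1.60 in untreated inflamed replicate 1 and 0.79 in untreated polypoid replicate 2, and between -0.15 and 0.17 in the other 6 animals. Its difference with 5-ASA was -0.65 ± 0.36 (adjusted p = 0.826).

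Ccr3, the eosinophil receptor, differed between tissues by 0.43 ± 0.18 (limma adjusted p = 0.223), with treated inflamed replicate 2 alone at 0.01 and the other animals at 0.63 to 1.09. The other Ccr3 probe gave only 0.07 ± 0.09. Ccr1 spread from 0.46 to 2.51 and differed by 0.37 ± 0.52. Ccr9, the receptor of Ccl25, differed by -0.22 ± 0.18. Ccr4 (0.02 ± 0.09), Ccr7 (-0.08 ± 0.10) and Ccr8 (-0.06 ± 0.11) lay between -0.18 and 0.21 in all animals. Ccr8, the receptor of mouse Ccl8, was detected above background on 5 of 7 inflamed and 6 of 8 polypoid arrays and passed the filter through treated polypoid tissue alone.

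Of 11 other CC chemokines listed, 9 were on the array (Ccl21a and Ccl26 were not found there by name) and 7 passed the filter. Limma called 0 of 7 in either comparison, and 1 of 7 had an unadjusted p below 0.05 in each. Over all genes 23.2% had one between tissues and 6.38% with 5-ASA. Ccl24 (eotaxin-2), like Ccl11 a ligand of Ccr3, was 1.39 and 1.45 in untreated inflamed, 2.29 and 0.26 in treated inflamed, 3.46 and 2.34 in untreated polypoid and 3.00 and 2.97 in treated polypoid tissue. All 4 polypoid animals were above all 4 inflamed ones, as held for 8.37% of all genes, by 1.59 ± 0.48 (adjusted p = 0.111). The other Ccl24 probe gave 1.10 ± 0.38 (limma adjusted p = 0.16). Ccl24 was well above background on 2 of 3 treated inflamed arrays. Ccl11 differed by -0.79, and neither gene passed the test. Ccl27a, a skin chemokine that shares Ccr10 with Ccl28, differed by 0.59 ± 0.29 (adjusted p = 0.285). Ccl9 differed by -0.24 ± 0.17 between tissues and by -0.47 ± 0.17 with 5-ASA, where it had the 1 unadjusted p below 0.05 (0.0301, adjusted p = 0.768). Ccl6, a macrophage chemokine, was 4.60 to 6.31 in every animal.

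Atypical receptors take up chemokines without driving migration. Limma called 0 of 5 in either comparison. An unadjusted p below 0.05 was found for 1 of 5 between tissues (23.2% of all genes) and 2 of 5 with 5-ASA (6.38%). Ackr3, which takes up CXC chemokines, was -0.40 and -0.81 in untreated inflamed and 0.13 and -0.35 in untreated polypoid tissue, against 0.34 and 0.34 in inflamed and 0.62 and 0.62 in polypoid tissue with 5-ASA. All 4 animals given 5-ASA were above all 4 untreated ones, by 0.84 ± 0.15 (unadjusted p 0.00136, adjusted p = 0.766). Ackr2, the scavenger of inflammatory CC chemokines, differed with 5-ASA by -0.39 ± 0.13 (adjusted p = 0.768) and between tissues by 0.16 ± 0.13. Ackr4, which takes up Ccl25 among others, differed by -0.08 ± 0.09 between tissues, and by 0.16 ± 0.16 for its other probe.

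**Figure D4:**
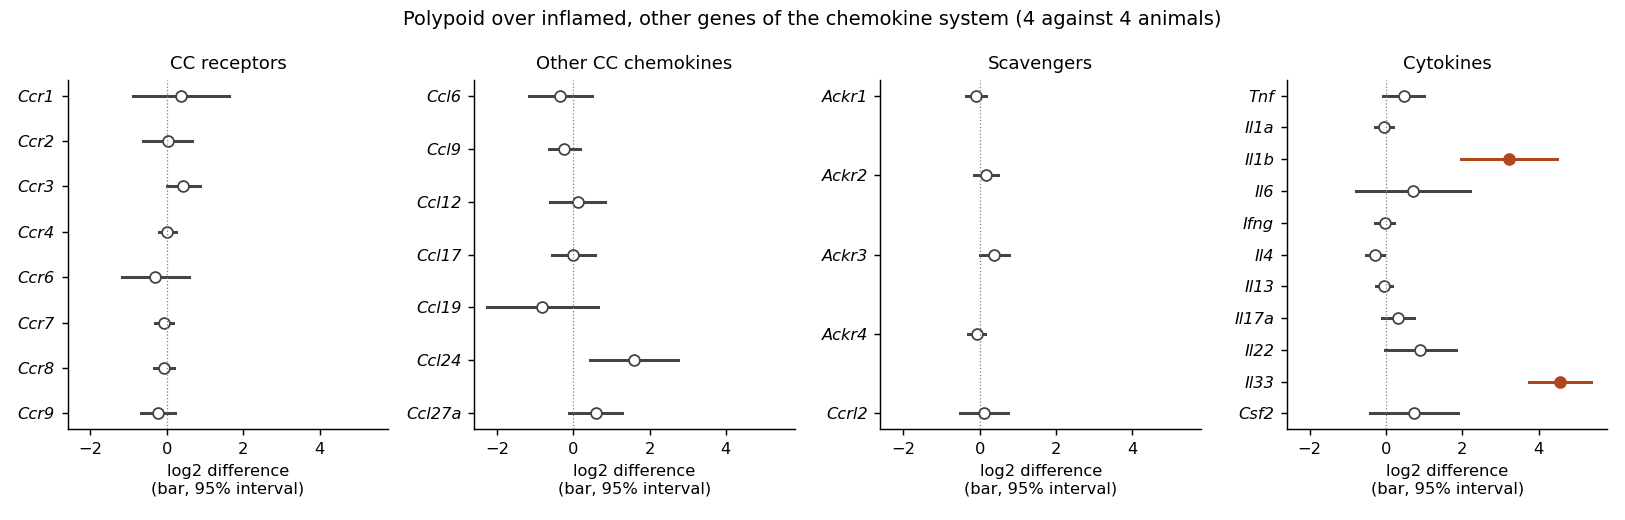
Polypoid over inflamed difference (log2, x axis) of the receptors, other CC chemokines, scavengers and cytokines tested, 4 against 4 animals, with bars for 95% intervals. Filled points are called genes: Il1b at 3.22 and Il33 at 4.57, while all tested receptors lie between -0.30 and 0.43.

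Among 12 cytokines known to induce chemokines, 11 were tested and 2 rose in polypoid tissue, Il1b and Il33, with none lower. Over all genes 3.97% rose and 1.97% fell. Of the 11, 7 passed the filter in both tissues, Il1b and Il33 among them, and 4 (Il6, Il17a, Il22 and Csf2) through treated polypoid tissue alone. Il1b, a product of myeloid cells that activates NF-kB, was 3.04 and 2.89 in untreated inflamed, 2.18 and 3.17 in treated inflamed, 6.44 and 5.35 in untreated polypoid and 7.21 and 5.18 in treated polypoid tissue. Every polypoid animal was above every inflamed one, by 3.22 ± 0.51 (9.33-fold, limma adjusted p = 0.0246). Leaving out any 1 inflamed animal ended the Il1b call, with differences of 2.97 to 3.47 and adjusted p of 0.061 to 0.111. Il33, an alarm signal of epithelium and stroma, was -1.04 and -2.27, then -2.11 and -2.15 in the inflamed groups without and with 5-ASA, and 2.95 and 2.92, then 2.93 and 1.89 in the polypoid groups. It differed by 4.57 ± 0.33 (adjusted p = 0.00432). With session as a block, which leaves almost nothing to measure the spread, neither was called (limma adjusted p = 0.334). The differences were then 2.80 for Il1b and 5.21 for Il33, and within session 3 they were 2.38 and 4.67.

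The remaining cytokines did not pass the test. Tnf differed by 0.46 ± 0.22 (limma adjusted p = 0.28) and was highest in treated polypoid replicate 1 at 1.55. That animal also had the highest Ccl2, Ccl3, Ccl4, Ccl20 and, by its brighter probe alone, Ccl7. Il6 and Csf2 read 1.66 and 2.70 in that animal, above the others, but they were well above background on 5 and 1 of 7 inflamed arrays, and both passed the filter through treated polypoid tissue alone. Il4 was lower in polypoid animals by -0.28 ± 0.10 (adjusted p = 0.149). Il17a and Il22, cytokines of T helper 17 cells and innate lymphocytes, were not well above background on any of 7 inflamed arrays and were so on 6 and 7 of 8 polypoid arrays. Of 7 neutrophil markers tested, 4 rose in polypoid tissue (S100a9 by 4.32 ± 0.19), as did 3.97% of all genes. The mean level over the list was 0.29 to 0.58 in inflamed and 1.84 to 2.87 in polypoid animals. Only 3 of the 7, S100a8 and S100a9 among them, passed the filter in both tissues, and the other 4 passed through polypoid tissue alone. Mmp8 and Retnlg, which were called, are among those 4, so their rises carry no weight, though all 4 count in that mean. The part of neutrophils, which make Il1b and several CC chemokines, in these values was not tested.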

How the data were processed

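Two-channel arrays of laser-captured colon were read per the file headers with Agilent Feature Extraction 9.1.1.1, and the deposited files hold intensity values per spot (mean signal and median local background) and the scanner software's processed signals. Per the file headers they also hold a log10 ratio of Cy5 over Cy3, used only to check direction. The series' deposited value table gives log2 ratios, sample over reference, and its background correction and normalization are not given in the sources used here. Per array it correlated with the recomputed values at 0.996 or more.

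From the intensities, background was corrected with normexp (offset 50), dyes were normalized by loess within each array (R 4.3.3, limma 3.58.1), control spots and outlier spots were left out, and ratios were turned to sample over reference. Each of 43790 spots per array belonged to 1 of 41174 probes or to a control. The arrays of an animal were joined by a fit of animal and dye, so that each animal counts once. Treated inflamed replicate 2 has 1 array, whose dye effect comes from the other animals. Probes were tested where all arrays of 1 or more groups passed the scanner's test against background, and the brightest of them stood for a gene. Genes were named from a mouse reference table (GRCm38.p6, names only). The 4 groups were fitted together with lmFit and eBayes over 21301 genes, with Benjamini-Hochberg adjustment and a threshold of 0.05, and the fit was tested on simulated data. Animals are separate mice, and with 2 per group only large differences can be called.

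All 10 members, the receptors analysed, the called genes of each other list (filled to 3 by p) and the 2 nearest profiles of the 4 most variable members are named by rule. One gene of the receptor list is not reported here. Other genes of the lists and the marker genes were named after their values were seen. The members and all lists were chosen with earlier results of these data known. The array depth has no count, and the number of arrays limits the precision. Alternatives covered background, normalization, filter, dye, probe, session, replicate number and each animal left out.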

Additional observations from a re-analysis of the deposited data

Results flagged for a closer look

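Ccl5 in polypoid tissue had 1 animal far from the other 3. Untreated polypoid replicate 1 stood at 2.45, and the others at 1.30, 1.32 and 1.23. Its gap to the nearest other animal was 0.9308 of the whole range of the 4 animals, above Dixon's 95% critical value for that many values. Chance flags about 1 in 20 such groups, and 10 members were screened in each tissue.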

How the results depend on the processing

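Over the 7 comparisons, 1122 of 1206 member values under an alternative kept both their direction and their side of the threshold, 9 lost a call, 9 gained one and 66 changed sign with no call on either side. No called value reversed. For polypoid over inflamed, 1 member was called, against 3 with processed signals, 2 with Cy3 arrays only, 0 with session as a block, and 1 to 2 when leaving out each animal. The 3 calls with processed signals were Ccl7, Ccl5 and Ccl28. In untreated mice 0 members were called, against 1 (Ccl7, adjusted p = 0.0467) with the deposited value table, which lacks Ccl7 on 1 of 15 arrays. Under 5-ASA 1 was called (Ccl7; with processed signals the 1 call was Ccl28 in its place), against 0 with session as a block and 0 to 1 when leaving out each animal. Of the inducing cytokines 2 were called, against 4 with processed signals and 0 with session as a block. The 2 added with processed signals, Il17a and Il22, passed the filter through treated polypoid tissue alone, so they carry no weight as a count. The fit with session as a block left almost nothing to measure the spread. Its 0 calls thus cannot decide whether a difference depends on session. The cause of these changes was not tested.

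Ccl7 ranged from 0.50 for its other probe (adjusted p = 0.134) through 0.98 with the mean over its probes to 2.46 with processed signals, and from 1.40 to 1.53 when leaving out each animal. The single probes, fitted on their own, were chosen as alternatives after seeing the data. Over all genes, polypoid over inflamed gave 1264 calls, against 0 with session as a block and 132 to 1325 when leaving out each animal. In untreated mice 35 genes were called, against 83 with processed signals, 22 with the deposited table, 11 with no filter, 0 with session as a block, 17 with the replicate block and 0 to 12 when leaving out each animal. Under 5-ASA 651 were called, against 419 with the deposited table, 0 with session as a block and 1089 with the replicate block, and 0 to 892 when leaving out each animal. For 5-ASA in polypoid tissue 0 genes were called, against 1 with processed signals. Over both arms, polypoid over inflamed gave 1791 calls with the replicate block, 1654 with processed signals and 967 with the deposited table.

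With the replicate block, 3 members were called for polypoid over inflamed (Ccl7, adjusted p = 0.00761; Ccl5, 0.0263; Ccl28, 0.0222) and 2 under 5-ASA. Replicate numbers share no stated source. In every group, however, replicate 1 was scanned in session 1 or 2 and replicate 2 in session 3 or 4. The replicate block thus also sets earlier against later scans. The deviations of same-numbered animals correlated between groups at 0.03 to 0.36, not above 0.1 for every pair, so the pairing was not used in the main fit.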
